A study of Mus musculus with 30 samples.

Results

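*Ucp1* and a set of genes that mark adipocytes were followed heart by heart in RNA sequencing of the mouse left ventricle. The set holds 10 genes, *Ucp1*, *Cidea*, *Adipoq*, *Plin1*, *Fabp4*, *Lep*, *Retn*, *Cfd*, *Car3* and *Cidec*, of 49671 genes measured with the peptides and 55263 with the antibodies. All 10 had a row in both tables, and they were picked by name with earlier results of these data known, so their levels and fold changes are given as a description. All 30 mice were male wild-type C57BL6J. In the peptide study, 7 mice were administered Aβ42, a recombinant human amyloid beta peptide, and 7 were administered a scrambled peptide, ScrAβ42. Peptides were injected daily i.p. for 4 weeks, by the labels from 12 weeks of age and at 1 mg per day, while the methods allow a somewhat younger start and give a dose in micrograms. In the antibody study, 8 mice were given 3D6, an antibody that neutralises amyloid beta, and 8 a control antibody, weekly i.p. from about 12 weeks of age while fed a high fat diet according to the methods. The deposited description states instead that these mice also received Aβ42, and this was not resolved. Hearts of the peptide study are named by their titles in the labels (Abeta42_ or ScrAbeta42_ and the mouse number), and hearts of the antibody study by group and mouse number.

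Brown adipocytes burn fatty acids for heat through UCP1, a carrier in the inner mitochondrial membrane that lets protons return to the matrix without making ATP. White adipocytes store triglyceride and secrete hormones such as adiponectin, leptin and resistin. Both kinds coat their lipid droplets with perilipin 1 and CIDE proteins, and adipose depots of both kinds lie outside the myocardium, around the great vessels, the atria and the base of the heart. In bulk RNA, more cells of a type and more RNA per cell cannot be told apart.

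Depth was 4478991 to 6015767 counts per heart for the peptides and 6397189 to 8310480 for the antibodies, so that 3 counts, taken here as the limit that a count of 0 allows, correspond to well under 1 CPM. Levels are CPM, counts scaled to a common library size with TMM factors. Cardiomyocyte genes were present in every heart. The 6 listed for the ventricle (*Myh6*, *Myl2*, *Myl3*, *Tnni3*, *Actc1* and *Tnnt2*) summed to between 38667 and 83062 CPM in the peptide study and between 43858 and 56777 CPM in the other. Atrial cardiomyocytes also make *Myh6*, *Tnni3*, *Actc1* and *Tnnt2*, so this sum does not set ventricle apart from atrium. The lowest sum belonged to Abeta42_3457, which also had 804 CPM of *Myl2*, the ventricular myosin light chain, against a median of 6014 CPM. This heart stood apart in most results that follow, and the fitted fold changes of the 8 tested genes are given with and without it.

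*Ucp1* lies on chromosome 8 of GRCm38, plus strand, chr8:83290352-83298452, and *Adipoq*, which encodes adiponectin, on chromosome 16, plus strand, chr16:23146536-23158028. The 250 bases before the RefSeq start of each gene are shown because the ratio of these 2 genes differs among the hearts described next. They were matched by symbol to the RefSeq promoter table of GRCm38.p6, in which 7 of the 10 genes have an entry. Capitals mark AGGTCA, the hexamer read by many nuclear receptors, TGACG, the core of a cAMP response element, and CCAAT, on either strand.
Ucp1, chr8:83290098-83290347, plus strand: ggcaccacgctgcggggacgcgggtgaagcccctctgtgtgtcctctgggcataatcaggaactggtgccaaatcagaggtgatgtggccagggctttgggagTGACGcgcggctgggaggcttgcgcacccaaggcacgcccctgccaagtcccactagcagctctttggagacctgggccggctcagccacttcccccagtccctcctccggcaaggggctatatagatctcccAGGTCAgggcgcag
Adipoq, chr16:23146286-23146535, plus strand: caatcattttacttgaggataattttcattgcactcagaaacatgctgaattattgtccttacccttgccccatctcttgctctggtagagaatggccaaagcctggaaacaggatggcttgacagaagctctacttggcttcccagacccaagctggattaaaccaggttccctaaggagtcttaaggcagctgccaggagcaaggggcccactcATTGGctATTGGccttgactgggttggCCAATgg
In the window of *Ucp1*, AGGTCA began 14 bases and TGACG 147 bases before the start, and CCAAT was not found. In the window of *Adipoq*, CCAAT or its reverse complement ATTGG occurred 3 times, beginning 34, 27 and 7 bases before the start, and neither AGGTCA nor TGACG was found. Over all 32851 promoter windows of this length in the table, the nuclear receptor hexamer was present in 14%, the cAMP response core in 17.8% and the CCAAT box in 33.8%. The TATA box was searched only as TATAAA, which is present in 12.4% of all windows and was found in neither gene. Variant forms were not searched, and the window of *Ucp1* holds tatatag shortly before AGGTCA. The C/EBP pattern, searched as TTNNGNAA and present in 36.8% of all windows, was found once, in the window of *Adipoq*. These matches describe letters and not binding.

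In the peptide study, *Ucp1* was above 3 counts in 3 of 14 hearts and above 7 counts in 2. Abeta42_3457 had 1805 counts (248 CPM) and Abeta42_3451 had 264 counts (52.1 CPM). The other Aβ42 hearts had 7 counts (Abeta42_3458), 2 counts (Abeta42_3456), 1 count (Abeta42_3460) and 0 counts (Abeta42_3452 and Abeta42_3455). The 7 ScrAβ42 hearts had 0 counts in 5 mice and 1 count in each of ScrAbeta42_3447 and ScrAbeta42_3449. Together the 2 high hearts held 99.4% of all *Ucp1* counts of the study. The groups overlapped, since 2 Aβ42 hearts lay at 0, below the highest ScrAβ42 heart.

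The group mean of *Ucp1* was 43.1 ± 92.3 CPM (SD, n = 7) with Aβ42 and 0.0553 ± 0.0945 CPM (SD, n = 7) with ScrAβ42. The SD exceeded the mean in both groups, and the median with Aβ42 was 0.375 CPM. Summed over hearts, 2079 counts against 2 gave a ratio of 1015 per count sequenced, with a 95% interval of 281 to 8386 that covers counting error only (exact binomial). Without Abeta42_3451 and Abeta42_3457, 10 counts against 2 gave a ratio of 6.98 with an interval of 1.49 to 65.5, which again leaves out the spread between mice. The fitted log2 fold change in edgeR was 9.13 (SE 2.30); it depends on the prior count and was 6.83 without Abeta42_3457 and 3.90 with limma-voom on all hearts.

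**Figure D1:**
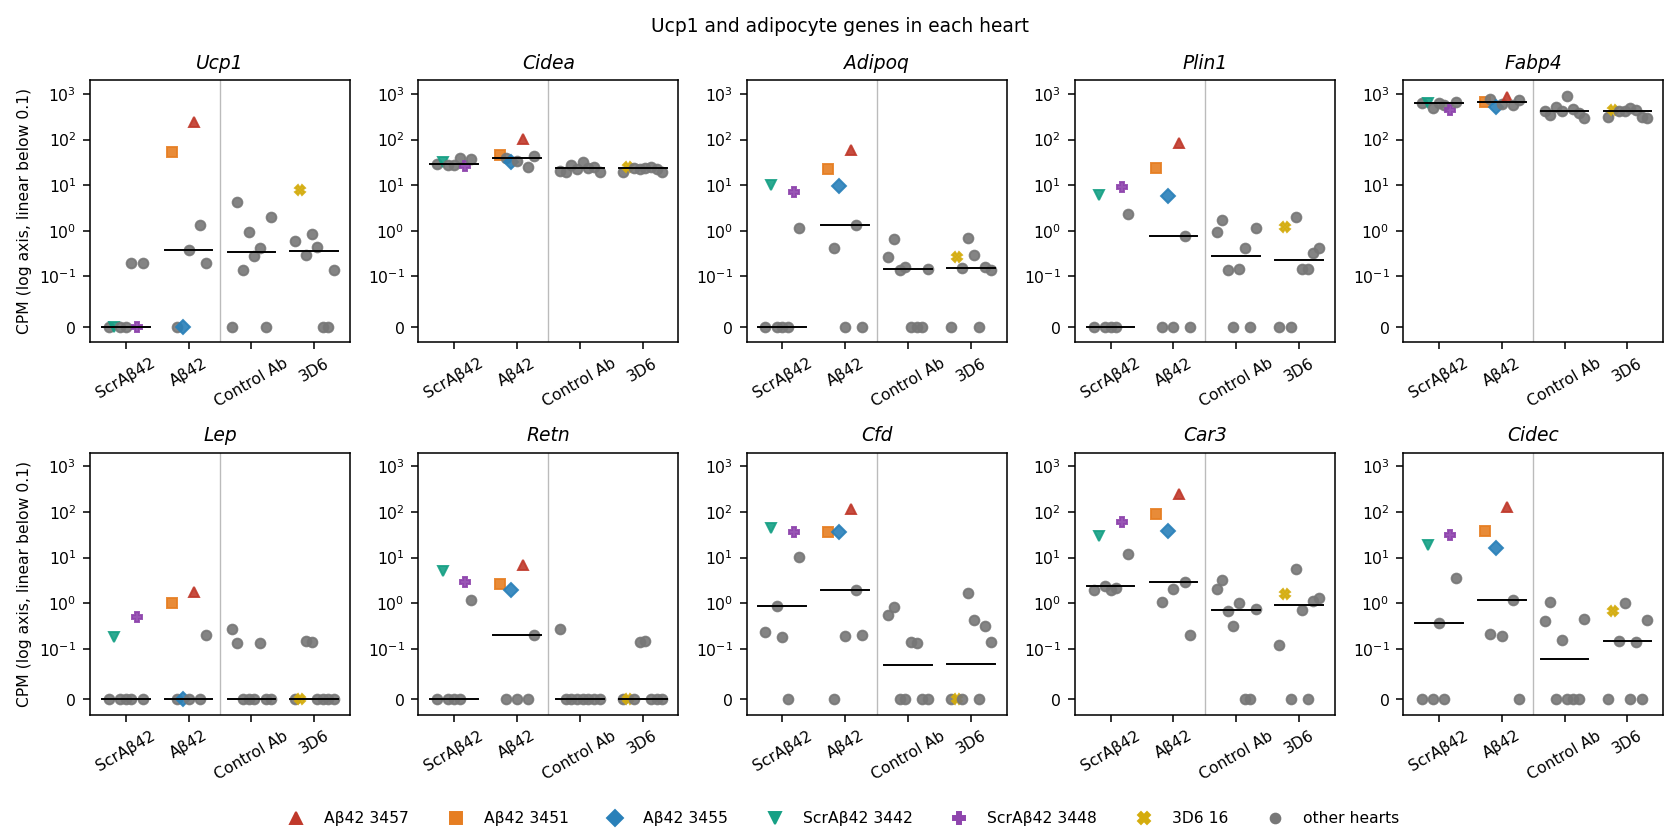
CPM of the 10 genes in each heart (y axis, logarithmic above 0.1 and linear below), by group (x axis), with 1 point per heart, a line at the group median and colours for the hearts named in the text. *Ucp1* stands at 248 and 52.1 CPM in 2 Aβ42 hearts, *Adipoq*, *Plin1*, *Cfd*, *Car3* and *Cidec* are also high in those and 3 further hearts of both peptide groups, and *Cidea* and *Fabp4* are present in all 30 hearts.

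The lipid droplet genes of adipocytes followed another pattern across the peptide hearts. *Plin1* (chr7:79720218-79732903, minus strand), which coats the droplet and gates lipolysis, had 617 counts (84.8 CPM) in Abeta42_3457, 121 in Abeta42_3451, 31 in Abeta42_3455 and 4 in Abeta42_3458, with 0 in the other 3 Aβ42 hearts. In the ScrAβ42 group it had 55 counts in ScrAbeta42_3448, 34 in ScrAbeta42_3442, 12 in ScrAbeta42_3449 and 0 in the other 4. Both groups thus contained hearts with and without *Plin1*, and only Abeta42_3451 and Abeta42_3457 lay above the ScrAβ42 range.

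*Cidec* (chr6:113424634-113435760, minus strand), which fuses droplets into the large droplet of white fat, was at 126 CPM in Abeta42_3457 and 38.3 CPM in Abeta42_3451. ScrAbeta42_3448 followed at 31.7 CPM, ScrAbeta42_3442 at 18.6 CPM and Abeta42_3455 at 16.2 CPM. In all other peptide hearts it was at most 3.49 CPM, the value of ScrAbeta42_3449. The third highest *Cidec* value therefore belonged to a heart given the scrambled peptide.

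The secreted products of adipocytes were found in largely the same hearts. *Adipoq* had 441 counts (60.6 CPM) in Abeta42_3457, 113 in Abeta42_3451, 49 in Abeta42_3455, 7 in Abeta42_3458, 2 in Abeta42_3452 and 0 in Abeta42_3456 and Abeta42_3460. With ScrAβ42 it had 56 counts in ScrAbeta42_3442, 43 in ScrAbeta42_3448, 6 in ScrAbeta42_3449 and 0 in the other 4 hearts. *Cfd* (chr10:79890853-79892655, plus strand), which encodes the complement protease adipsin, was at 114 CPM in Abeta42_3457, 43.7 CPM in ScrAbeta42_3442 and 36.9 CPM in Abeta42_3451. Of these *Cfd* values the second was in the control group, and the medians were 1.93 CPM with Aβ42 and 0.874 CPM with ScrAβ42.

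The hormones of white fat were scarce. *Retn* (chr8:3655770-3660110, plus strand), which encodes resistin, had 49 counts in Abeta42_3457, 28 in ScrAbeta42_3442, 17 in ScrAbeta42_3448, 13 in Abeta42_3451 and 10 in Abeta42_3455. *Lep* (chr6:29060220-29073877, plus strand), which encodes leptin, had 13 counts in Abeta42_3457 and 5 in Abeta42_3451, and at most 3 in any other peptide heart. *Lep* was thus above 3 counts in 2 hearts, those with the most *Ucp1*. *Retn* was above 3 counts in 6 of 14 hearts, 3 in each group.

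*Car3* (chr3:14863512-14872523, plus strand), a carbonic anhydrase abundant in fat and in slow skeletal muscle, was above 3 counts in 13 of 14 peptide hearts. It was at 247 CPM in Abeta42_3457, 90.1 CPM in Abeta42_3451 and 59.96 CPM in ScrAbeta42_3448, against a median of 2.65 CPM. Its top 3 hearts were therefore the same as those of *Plin1* and *Cidec*.

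*Cidea* and *Fabp4* behaved differently from the other 8 genes and were present in all 30 hearts. *Cidea* (chr18:67343604-67367785, plus strand), a droplet protein best known from brown fat, ranged from 24.9 to 102 CPM with Aβ42 (median 39.3) and from 27.0 to 39.1 CPM with ScrAβ42 (median 29.9). The next heart below Abeta42_3457 was Abeta42_3451 at 46.4 CPM, and without both the Aβ42 hearts spanned 24.9 to 43.3 CPM. *Fabp4* (chr3:10204088-10208576, minus strand), a fatty acid binding protein of adipocytes that capillary endothelium also makes, ranged from 506 to 838 CPM with Aβ42 (median 660) and from 440 to 655 CPM with ScrAβ42 (median 631). Mouse Abeta42_3457 was again highest, but by 1.33 times the study's median, against 77 to 219 times for *Adipoq*, *Plin1*, *Cfd*, *Car3* and *Cidec*.

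Counting the 8 genes other than *Cidea* and *Fabp4*, Abeta42_3451 and Abeta42_3457 had all 8 above 3 counts. Another 5 peptide hearts had 6 of 8, namely Abeta42_3455 and Abeta42_3458 and ScrAbeta42_3442, ScrAbeta42_3448 and ScrAbeta42_3449. In the remaining 7 hearts 0 to 2 of the 8 genes were above 3 counts. The summed level of the 8 genes was 889 CPM in Abeta42_3457 and 267 CPM in Abeta42_3451. It was 147 CPM in ScrAbeta42_3448, 113 CPM in ScrAbeta42_3442, 108 CPM in Abeta42_3455, 30.6 CPM in ScrAbeta42_3449 and 9.47 CPM in Abeta42_3458. The other 7 hearts had between 0.992 and 3.28 CPM. Adipocyte transcripts were thus found in hearts of both groups, and *Ucp1* above 3 counts, within the peptide study, only in Aβ42 hearts (Abeta42_3451, Abeta42_3457 and, at 7 counts, Abeta42_3458).

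The balance of *Ucp1* to *Adipoq* differed among these hearts. *Ucp1* made up 80.4% (exact Clopper-Pearson 95% interval 78.7 to 82.0) of the 2246 counts of both genes in Abeta42_3457 and 70.03% (65.1 to 74.6) of 377 in Abeta42_3451. It made up 0% of 49 counts in Abeta42_3455 (upper bound 7.25), of 56 in ScrAbeta42_3442 (upper bound 6.38) and of 43 in ScrAbeta42_3448 (upper bound 8.22). The intervals of the first 2 hearts overlapped neither each other nor those of the other 3. With few counts, Abeta42_3458 was at 50% of 14 (23.04 to 76.96), which overlaps the interval of Abeta42_3451, and ScrAbeta42_3449 at 14.3% of 7 (0.361 to 57.9). All these intervals cover only the counting error of a single library per heart. They treat each count as independent, and the libraries carry no molecular identifiers that would show duplicated reads. Per kilobase of exon, *Ucp1* was at 152 and *Adipoq* at 43.9 CPM in Abeta42_3457, and at 31.9 and 16.2 CPM in Abeta42_3451.

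**Figure D2:**
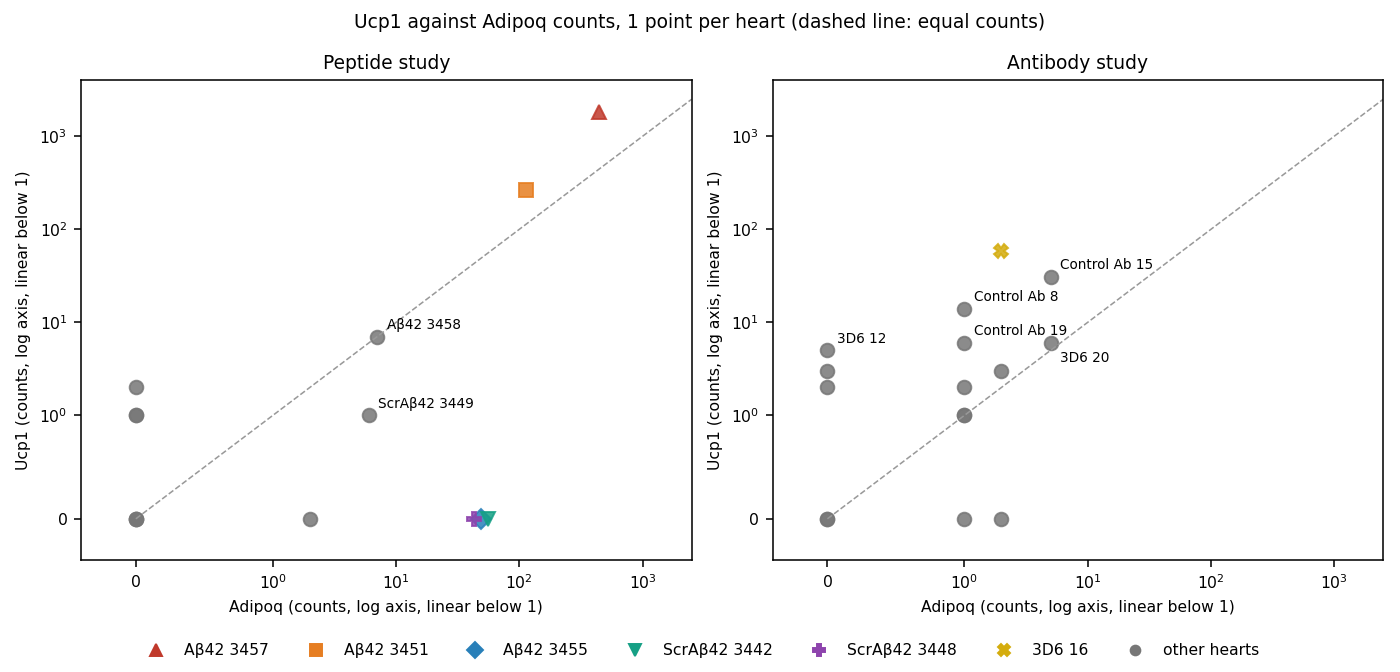
Counts of *Ucp1* (y axis) against *Adipoq* (x axis) in each heart of the peptide study (left) and the antibody study (right), on axes that are logarithmic above 1 and linear below, with a dashed line at equal counts. Abeta42_3457 and Abeta42_3451 lie above the line with 1805 and 264 *Ucp1* counts, while Abeta42_3455 and ScrAbeta42_3442 and ScrAbeta42_3448 lie at 0 *Ucp1* with 43 to 56 *Adipoq* counts.

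Of 22 other genes of brown adipocytes, 19 exceeded 3 counts in some heart, and 7 of these had Abeta42_3457 and Abeta42_3451 as their highest pair (*Dio2*, *Elovl3*, *Otop1*, *Slc27a2*, *Slc36a2*, *Gk* and *Elovl6*). Of all 16270 genes above 3 counts in some heart, 1.88% had that highest pair, 20.5% were highest in Abeta42_3457 and 17.3% were lowest there. Of the 19 brown genes, 9 were highest and 4 lowest in Abeta42_3457. The summed level of the list, which *Fabp3*, *Cox7a1* and *Cox8b* of heart muscle dominate, was also lowest there, at 1818 CPM against a median of 2607 CPM. *Elovl3*, a fatty acid elongase of brown fat, was at 12.5 CPM in Abeta42_3457 and 4.74 CPM in Abeta42_3451, with at most 1 count elsewhere in the peptide study. *Otop1*, a proton channel, was at 6.32 and 1.98 CPM in these hearts, also with at most 1 count elsewhere. *Slc27a2*, a fatty acid transporter and acyl-CoA synthetase, was at 15.4 and 2.57 CPM, with at most 3 counts elsewhere. *Dio2*, the deiodinase that makes active thyroid hormone, was at 44.0 and 11.7 CPM, followed by ScrAbeta42_3448 at 6.20 CPM.

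Some defining brown markers were absent. *Zic1*, *Lhx8* and *Bmp8b*, which mark interscapular or classical brown fat, had at most 2 counts in any peptide heart, Abeta42_3451 and Abeta42_3457 included. Genes of the list that were present in every heart went both ways. *Slc36a2*, an amino acid transporter, was at 82.6 CPM in Abeta42_3457 and 38.1 CPM in Abeta42_3451 against a median of 19.9 CPM. *Cox8b* had its lowest value, 212 CPM, in Abeta42_3457, against a median of 345 CPM, and *Cox7a1* its lowest, 343 CPM, against 564 CPM. *Prdm16* ranged from 14.3 to 25.1 CPM and *Ebf2* from 5.74 to 10.2 CPM across the 14 hearts.

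White adipocyte genes outside the set varied among themselves. Of the 15 listed, 11 exceeded 3 counts in some heart, 4 of these were highest in Abeta42_3457 and 1 had Abeta42_3457 and Abeta42_3451 as its highest pair. The summed level of this list was highest in Abeta42_3457, at 674 CPM against a median of 207 CPM. Of the 674 CPM, *Ccdc80* made up 237 CPM, *Cyp2e1* 178 CPM and *Npr3* 162 CPM. *Ccdc80* and *Npr3* were present in every peptide heart, at medians of 80.5 and 42.7 CPM, so the sum does not measure white adipocytes alone. The next sums of this list were 519.7 CPM in ScrAbeta42_3448, 417.7 CPM in Abeta42_3455 and 301.7 CPM in Abeta42_3458. Below these came 230.1 CPM in Abeta42_3451 and 221 CPM in ScrAbeta42_3442. The 8 genes other than *Cidea* and *Fabp4* ranked otherwise, at 267 CPM in Abeta42_3451 and 9.47 CPM in Abeta42_3458. *Cyp2e1*, a cytochrome P450 of white fat and liver, was at 178 CPM in Abeta42_3457, 57.9 CPM in ScrAbeta42_3448, 50.6 CPM in Abeta42_3451, 43.0 CPM in ScrAbeta42_3442 and 37.8 CPM in Abeta42_3455, against a median of 2.17 CPM. *Hoxc8* and *Hoxc9*, positional genes of inguinal and other trunk white depots, had 0 counts in all 30 hearts, and *Hoxc10* 1 count in 1 heart. The 4 hearts after Abeta42_3457 thus had *Cyp2e1* within 37.8 to 57.9 CPM, whether at 52.1 CPM or at 0 counts of *Ucp1*.

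**Figure D3:**
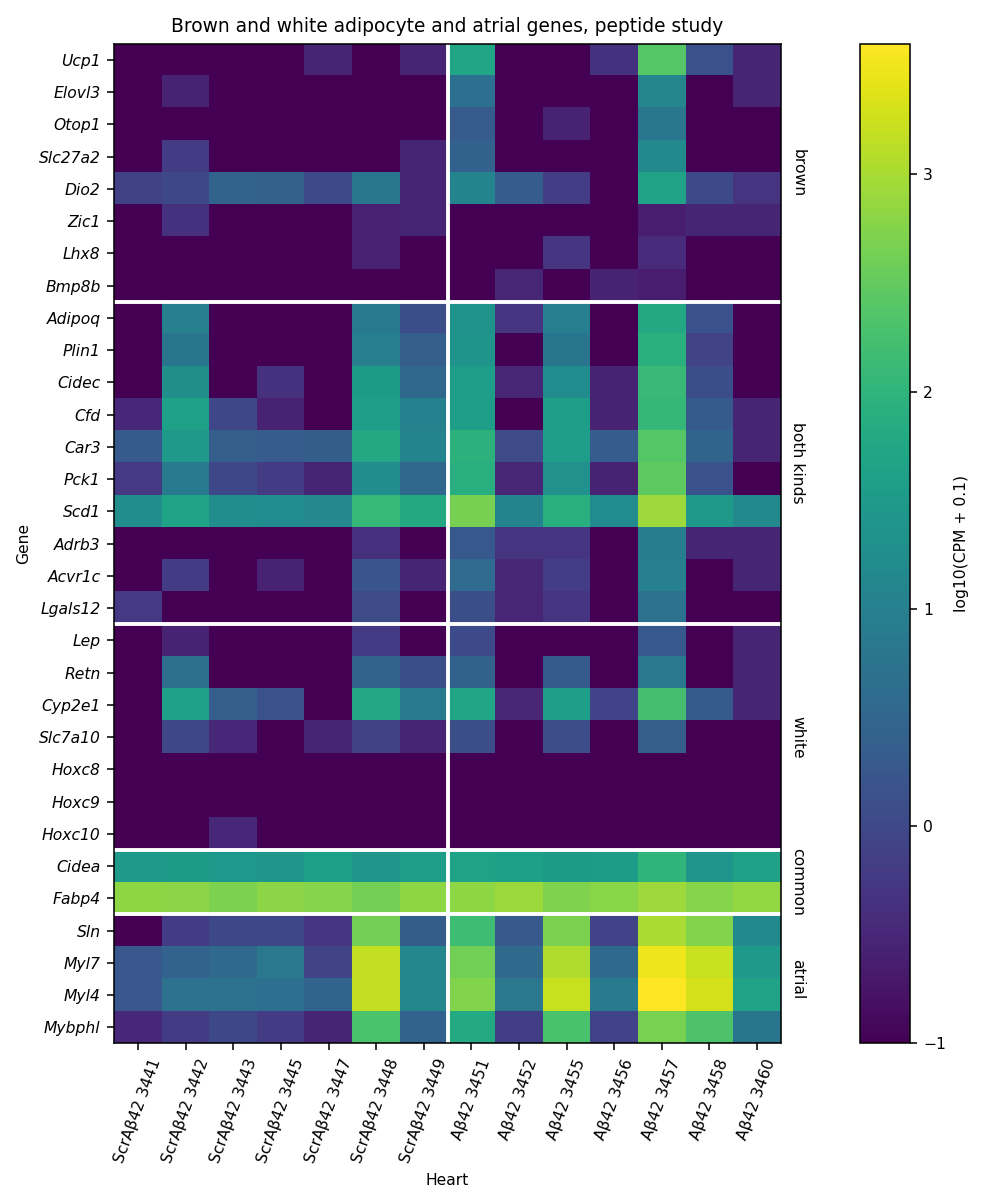
Heat map of log10(CPM + 0.1) (colour) for brown, shared and white adipocyte genes, *Cidea* and *Fabp4*, and atrial genes (rows) in the 14 hearts of the peptide study (columns, with ScrAβ42 left of the white line); the genes shown were chosen from the lists after their values were seen. *Elovl3*, *Otop1* and *Slc27a2* are high with *Ucp1* in Abeta42_3451 and Abeta42_3457, while *Adipoq* to *Car3* and *Cyp2e1* are also present in ScrAbeta42_3442 and ScrAbeta42_3448 and Abeta42_3455.

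Of 30 further genes of adipocytes in general, 17 were highest in Abeta42_3457, 11 had Abeta42_3457 and Abeta42_3451 as their highest pair and 7 were lowest in Abeta42_3457, beside the shares of 20.5%, 1.88% and 17.3% over all genes. The summed level of these 30 genes was lowest in Abeta42_3457, at 10043 CPM against a median of 14864 CPM. Genes of lipid synthesis differed among themselves: *Scd1*, *Fasn*, *Acaca* and *Gpd1* were among the 11, whereas *Acly*, *Me1* and *Dgat2* were highest in ScrAβ42 hearts. *Scd1*, the stearoyl-CoA desaturase, was at 837 CPM in Abeta42_3457, 447 CPM in Abeta42_3451 and 118 CPM in ScrAbeta42_3448, against a median of 23.7 CPM. *Pck1*, which supplies glycerol for triglyceride in fat, was at 291 CPM, 76.0 CPM and, in the third heart, 21.2 CPM, against a median of 1.11 CPM. *Adrb3*, the β3-adrenergic receptor that triggers lipolysis and thermogenesis, was at 8.38 CPM and 1.78 CPM in Abeta42_3457 and Abeta42_3451 and at most 2 counts elsewhere. Of 9 listed genes of this adrenergic pathway, *Prkar2b*, a regulatory subunit of protein kinase A, was also highest in these 2 hearts, at 62.8 and 19.6 CPM against a median of 1.83 CPM, and *Adrb1*, the main receptor of cardiomyocytes, ranged from 8.63 to 15.8 CPM.

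The relatives of the set showed other distributions. Among the uncoupling proteins, *Ucp2* was highest in Abeta42_3457 at 602 CPM, then ScrAbeta42_3448 at 495 CPM and Abeta42_3455 at 414 CPM, and *Ucp3*, the form of muscle, was lowest in Abeta42_3457 at 47.3 CPM. *Slc25a14* and *Slc25a30* stayed at or below 7.55 CPM in the peptide study. *Fabp3*, the binding protein of heart muscle, was lowest in Abeta42_3457 at 364 CPM against a median of 869 CPM, *Fabp5* ranged from 9.10 to 19.2 CPM and *Fabp7* had at most 1 count. Among perilipins and CIDE proteins, *Plin5*, the perilipin of oxidative muscle, was lowest in Abeta42_3457 at 79.1 CPM and *Plin3* at 94.8 CPM. *Plin2* ranged from 50.1 to 93.1 CPM, *Plin4* from 495 to 763 CPM and *Cideb* from 0.335 to 1.79 CPM. The highest *Plin1* and *Cidec* values thus stood in the heart with the lowest *Plin3*, *Plin5* and *Fabp3*.

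The comparison of Aβ42 with ScrAβ42 across all genes addressed what the peptide changes in the heart. Of 11985 genes that averaged 10 counts or more, 0 had an adjusted p (Benjamini-Hochberg) under 0.05 by the quasi-likelihood test of edgeR, 780 (6.51%) had an unadjusted p under 0.05, and DESeq2 called 12 (0.1%) and limma-voom 0. *Ucp1* was 1 of the 12, which is part of why it was chosen here, and was the only one of the 10 genes among them. The filter kept 8 of the 10 and removed *Lep* and *Retn*. All 8 had a log2 fold change above 0, with a median of 1.75 against 0.00 over all genes tested. An unadjusted p under 0.05 was reached by *Ucp1*, *Cidea* and *Plin1*, where 3.59% of all tested genes were higher and 2.92% lower at that level; nothing is read from this count, since *Ucp1* was chosen for its call and passed the count filter only through the Aβ42 group. The values were 2.31 (SE 1.17) for *Adipoq*, 2.66 (SE 1.24) for *Plin1*, 1.05 (SE 1.17) for *Cfd*, 1.78 (SE 1.11) for *Car3*, 1.72 (SE 1.22) for *Cidec*, 0.54 (SE 0.25) for *Cidea* and 0.21 (SE 0.13) for *Fabp4*.

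Among single hearts left out, these values depended most on Abeta42_3457. Without it the median of the 8 genes was 0.35, with 1.02 (SE 1.11) for *Adipoq*, 0.94 (SE 1.14) for *Plin1*, -0.08 (SE 1.12) for *Cfd*, 0.47 (SE 1.01) for *Car3*, 0.22 (SE 1.15) for *Cidec*, 0.20 (SE 0.14) for *Cidea* and 0.15 (SE 0.12) for *Fabp4*. Without Abeta42_3451 alone, *Adipoq* was at 2.16 and *Plin1* at 2.57. When both were left out, a choice made after the data were seen, *Ucp1* no longer reached 10 counts on average, 5 of the other 7 genes turned negative, and the median was -0.76. The log2 fold changes were then -0.28 (SE 1.17) for *Adipoq*, -0.94 (SE 1.20) for *Plin1*, -0.76 (SE 1.25) for *Cfd*, -0.86 (SE 1.04) for *Car3* and -1.14 (SE 1.27) for *Cidec*. *Cidea* was at 0.12 (SE 0.13) and *Fabp4* at 0.14 (SE 0.13). In DESeq2, *Ucp1* received no p-value once either mouse was left out.

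**Figure D4:**
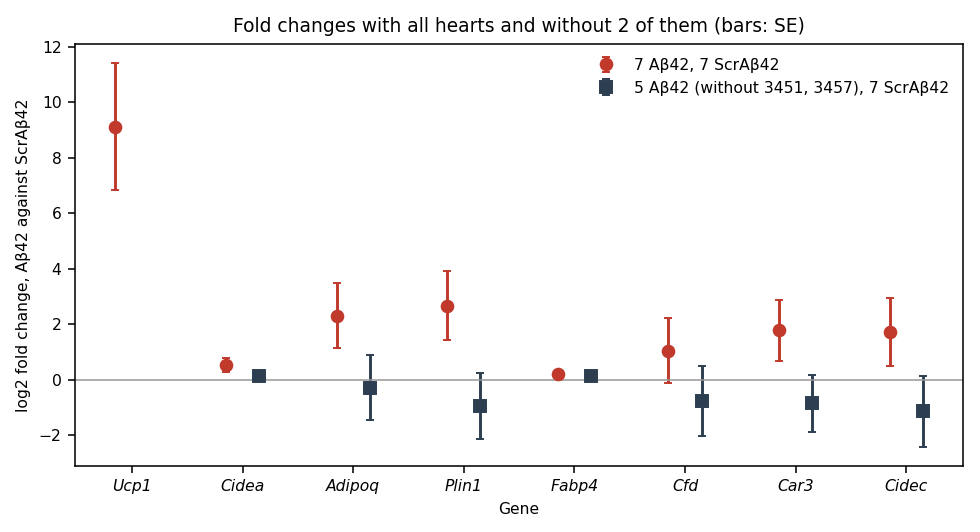
Log2 fold change of Aβ42 against ScrAβ42 with its standard error (y axis) for the 8 genes tested (x axis), with all 14 hearts (circles) and without Abeta42_3451 and Abeta42_3457 (squares, *Ucp1* then below the count filter). *Adipoq*, *Plin1*, *Cfd*, *Car3* and *Cidec* go from 1.05 to 2.66 with all hearts to between -1.14 and -0.28 without these 2.

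None of 26 tested genes among 30 further adipocyte genes had an adjusted p under 0.05 in edgeR. At an unadjusted p under 0.05, 4 of the 26 were higher (*Gpd1*, *Pck1*, *Scd1* and *Adig*) and 0 lower, where 3.59% of all tested genes were higher, and the list's median was 0.16. Of the 22 brown genes 15 were tested, with 1 higher (*Elovl6*), 0 lower and a median of 0.04. Of the 15 white genes 8 were tested, with 1 higher (*Npr3*, which atrial and mesothelial cells also express), 0 lower and a median of 0.50. The single beige gene tested of 5, *Slc6a8*, had a value of -0.14, and the 5 adipokine receptors, all tested, had a median of 0.02 and 0 at an unadjusted p under 0.05. Without Abeta42_3451 and Abeta42_3457, 0 genes of the adipocyte and brown lists and 1 of the white list had an unadjusted p under 0.05, where 516 (4.35%) of all 11849 tested did, and the medians of these 3 lists were 0.04, 0.02 and 0.27.

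Markers of atrial muscle moved with the adipocyte genes in part. All 5 (*Sln*, *Myl7*, *Myl4*, *Bmp10* and *Mybphl*) were detected, and their summed level was 12.4 to 8417 CPM with Aβ42 and 3.82 to 3665 CPM with ScrAβ42. It was 8417 CPM in Abeta42_3457, 4707 CPM in Abeta42_3455, 4357 CPM in Abeta42_3458 and 1158 CPM in Abeta42_3451, and 3665 CPM in ScrAbeta42_3448. ScrAbeta42_3442, however, carried 113 CPM of the 8 adipocyte genes with 9.73 CPM of atrial markers, and Abeta42_3458 carried 9.47 CPM with 4357 CPM. Mesothelium markers, 7 of 7 detected, summed to 26.2 to 211 CPM with Aβ42 and 28.4 to 94.0 CPM with ScrAβ42, and Abeta42_3457 was highest and Abeta42_3451 at 36.3 CPM. The part of atrial or mesothelial tissue in the adipocyte values was not tested.

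**Figure D5:**
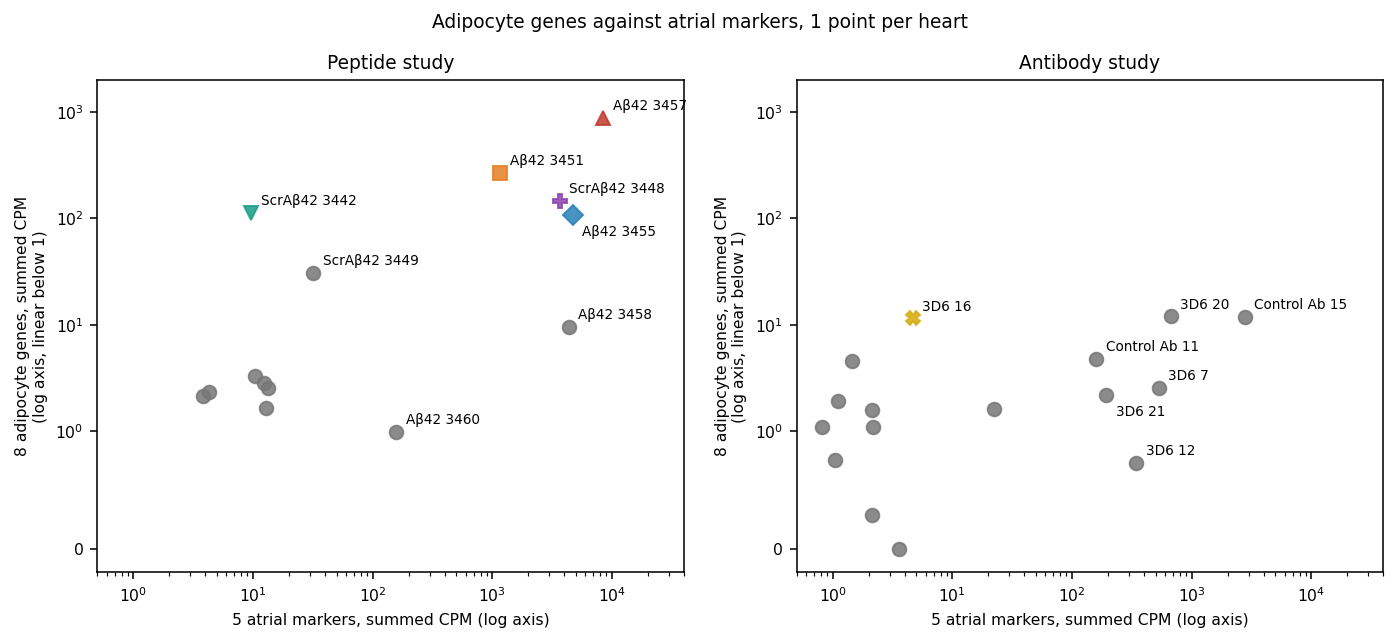
Summed CPM of the 8 adipocyte genes other than *Cidea* and *Fabp4* (y axis, linear below 1) against summed CPM of 5 atrial markers (x axis, logarithmic) in each heart of both studies. Abeta42_3457 is highest on both axes, at 889 and 8417 CPM, whereas ScrAbeta42_3442 has 113 CPM of adipocyte genes with 9.73 CPM of atrial markers.

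Other marker lists were checked in the same hearts. Fast skeletal muscle genes summed to 106 to 929 CPM, capillary endothelium genes to 673 to 908 CPM and red cell genes to 556 to 15945 CPM in the peptide study. In ScrAbeta42_3448, which had the 929 CPM, *Acta1* alone, which heart muscle also expresses, was at 867 CPM. Each of the other listed fast skeletal muscle genes was at most 28.1 CPM in any peptide heart. Thymus and T cell, lung and sympathetic neuron markers were at or below 3.71, 5.81 and 10.7 CPM.

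In the antibody study, the genes other than *Cidea* and *Fabp4* had at most 58 counts in any of the 16 hearts, and *Ucp1* had 132 counts in total. 3D6 mouse 16 had 58 counts (7.73 CPM), 3D6 mouse 20 had 6, 3D6 mouse 12 had 5, 3D6 mouse 21 had 3, 3D6 mouse 17 had 2, 3D6 mouse 7 had 1, and mice 4 and 24 had 0. Among the controls, mouse 15 had 31 counts (4.18 CPM), mouse 8 had 14, mouse 19 had 6, mouse 23 had 3, mouse 22 had 2, mouse 18 had 1, and mice 3 and 11 had 0. The groups overlapped throughout, with medians of 0.368 CPM with 3D6 and 0.347 CPM with the control antibody.

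The means of *Ucp1* in that study were 1.26 ± 2.63 CPM (SD, n = 8) with 3D6 and 1.00 ± 1.45 CPM (SD, n = 8) with the control antibody. The ratio of summed counts, 75 against 57, was 1.26 with an exact interval of 0.880 to 1.81 that covers counting error only. It turned to 0.329 without 3D6 mouse 16 and was 2.42 without control mouse 15. *Ucp1* did not reach the filter of 10 counts on average there, so no fold change was fitted.

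*Ucp1* appeared in these hearts with few other adipocyte transcripts. *Adipoq* had at most 5 counts, in 3D6 mouse 20 and control mouse 15, and 2 counts in 3D6 mouse 16. *Plin1* had at most 14 counts (3D6 mouse 20), *Car3* at most 39 (3D6 mouse 20), *Cfd* at most 12, *Cidec* at most 8, and *Lep* and *Retn* at most 2. *Ucp1* made up 96.7% (exact interval 88.5 to 99.6) of 60 *Ucp1* and *Adipoq* counts in 3D6 mouse 16, 86.1% (70.5 to 95.3) of 36 in control mouse 15 and 93.3% (68.1 to 99.8) of 15 in control mouse 8. These 3 intervals overlap each other, so their shares could not be told apart at this depth. In 3D6 mouse 20 the share was 54.5% (23.4 to 83.3) of 11 counts. Its interval lay below that of 3D6 mouse 16 and overlapped those of control mice 15 and 8.

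Of the 8 genes other than *Cidea* and *Fabp4*, 6 were above 3 counts in 3D6 mouse 20 and control mouse 15, 4 in 3D6 mouse 16, 3 in control mice 8 and 11, and 0 or 1 in the other 11 hearts. Brown markers were low as well: in 3D6 mouse 16, *Otop1* had 5 counts and *Elovl3* 2 counts, while *Scd1* was at 41.7 CPM, the highest of the study, followed by control mouse 15 at 21.6 CPM. Atrial markers ranged from 1.05 to 668 CPM with 3D6 and from 0.821 to 2776 CPM with the control antibody. They summed to 2776 CPM in control mouse 15 and 668 CPM in 3D6 mouse 20, but to 4.66 CPM in 3D6 mouse 16 and 1.46 CPM in control mouse 8. Of the 3 hearts with the most *Ucp1*, 3D6 mouse 16 and control mouse 8 thus had almost no atrial transcripts, and the source of the counts was not tested.

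*Cidea* and *Fabp4* were the 2 genes of the set tested in the antibody study. *Cidea* ranged from 19.01 to 25.4 CPM with 3D6 (median 23.4) and from 19.01 to 32.5 CPM with the control antibody (median 23.3), with a log2 fold change of -0.06 (SE 0.11). *Fabp4* ranged from 294 to 498 CPM with 3D6 (median 427) and from 292 to 924 CPM with the control antibody (median 426), with a log2 fold change of -0.25 (SE 0.19). Control mouse 22 alone had 924 CPM of *Fabp4* and also the highest *Cidea*, and without it the *Cidea* value turned to 0.02 and the *Fabp4* value was -0.04. Capillary endothelium markers, 5 of 5 detected, also had their highest sum in control mouse 22, at 867 CPM; they ranged from 618 to 867 CPM with the control antibody and from 569.8 to 712 CPM with 3D6, and their part in the *Fabp4* value was not tested. Neither was among genes with an unadjusted p under 0.05, which made up 3.64% (447) of 12274 tested (1.32% higher, 2.32% lower); 0 had an adjusted p under 0.05 in edgeR, DESeq2 or limma-voom.

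Among further adipocyte genes of the antibody study, 23 of 30 were tested, with 0 higher and 1 lower (*Acly*, -0.21, SE 0.10) at an unadjusted p under 0.05. Of the brown genes 13 of 22 and of the white genes 7 of 15 were tested, with 0 in either direction. The medians of the 3 lists were 0.06, 0.03 and -0.01, against -0.01 over all genes tested.

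The genes whose pattern was most like *Ucp1* were sought in both studies, over 11361 genes tested in each. The measure was Pearson's r of log2 CPM with *Ucp1* over the 14 peptide and the 16 antibody hearts, ranked by the lower of both. Genes below the count filter in either study could not be ranked, among them *Adipoq*, *Plin1*, *Cfd*, *Car3*, *Cidec*, *Pck1*, *Dio2* and *Elovl3*. *Cidea* and *Fabp4* were left out of the naming as genes of the set. *Scd1* came first (0.82 and 0.85), then *Fasn*, fatty acid synthase (0.82 and 0.70), and *Cyp2b10* (0.78 and 0.63), followed by *Cdh22*, *Trim67*, *Cables1*, *Ccdc88a*, *Acy3*, *Phf24* and *Gusb*, with lower values between 0.59 and 0.52. These r describe hearts of which few have much *Ucp1*: on ranks, *Scd1* was at 0.32 and 0.66 and *Fasn* at 0.11 and 0.49. Without the heart highest in *Ucp1* in each study, *Scd1* was at 0.67 and 0.74 and *Gusb* at -0.03 and 0.54.

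The transcripts of the set are distinct enough to be counted separately. *Ucp1* has 1 annotated transcript, and none of its 31-base words occurs in a transcript of another gene; the same held for *Cidea*, *Adipoq*, *Lep*, *Cfd* and *Cidec*. In the other 4 genes, 0.266% to 3.23% of such words, the most in *Retn*, occurred elsewhere. *Cidea* overlaps a gene on the opposite strand, B430212C06Rik, and the library kit keeps strand.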

How the data were processed

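Left ventricular RNA of 30 mice was sequenced as stranded total RNA. The authors quantified trimmed reads with Salmon against GENCODE vM24 (GRCm38). They deposited whole-number counts per gene for the peptide study and estimated counts per transcript for the antibody study. Here transcripts were summed to genes through GENCODE vM21 (0.381% of estimated counts were on transcripts it does not list) and rounded. A further column of the peptide table (1 column) had no counterpart in the labels and stayed out.

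The studies were fitted separately in edgeR 4.0.16 (R 4.3.3) by the two-sided quasi-likelihood test, on genes that averaged 10 counts or more, with TMM scaling and p-values adjusted after Benjamini-Hochberg. A prior count of 2 was used for CPM on the log2 scale. The SE of an edgeR log2 fold change was derived from the test, as the absolute fold change divided by the square root of F. Alternatives were DESeq2 1.42.0, limma-voom 3.58.1, other scalings and filters, and leaving hearts out. Within groups, every pair of hearts differed by more than sampling noise (lowest chi-square divided by its degrees of freedom, 3.57), and each is a separate mouse by its label. Binomial intervals (exact, 95%) used scipy 1.17.1.

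The genes and lists were chosen with earlier results of these data known, so no test supports them. Named genes were the 10 of the set, members of their families and lists, and the 10 most like *Ucp1*. *Dio2*, *Elovl3*, *Otop1*, *Slc27a2*, *Slc36a2*, *Cyp2e1*, *Scd1*, *Pck1* and *Adrb3* were singled out from the lists after their values were seen. Positions are 1-based, on GRCm38.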

Additional observations from a re-analysis of the deposited data

Results flagged for a closer look

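In groups of 7 or 8 hearts, 17 of 40 sets of values had a heart that lay apart by Dixon's criterion. Chance gives this in about 1 in 20 sets of normally distributed values, a rate that sets with many zeros do not follow, and the genes share hearts, so the count is not read against it. Abeta42_3457 was apart for 8 genes: *Ucp1* (248 CPM), *Cidea* (102 CPM), *Adipoq* (60.6 CPM), *Plin1* (84.8 CPM), *Retn* (6.73 CPM), *Cfd* (114 CPM), *Car3* (247 CPM) and *Cidec* (126 CPM). ScrAbeta42_3448 was apart for *Lep*, at 0.502 CPM, which is 3 counts. In the antibody study, 3D6 mouse 16 was apart for *Ucp1* (7.73 CPM, the next being 0.844 CPM). 3D6 mouse 20 was apart for *Adipoq* (0.703 CPM), *Cfd* (1.69 CPM) and *Car3* (5.48 CPM). Control mouse 15 was apart for *Adipoq* (0.674 CPM) and *Cidec* (1.08 CPM), control mouse 11 for *Retn* (0.271 CPM, 2 counts) and control mouse 22 for *Fabp4* (924 CPM).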

How the results depend on the processing

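The count of genes with an adjusted p under 0.05 for Aβ42 against ScrAβ42 was 0 in edgeR and in limma-voom, and 12 with DESeq2. Leaving out each heart in turn gave 0 to 3 in edgeR (3 without Abeta42_3452 and 1 without ScrAbeta42_3448). With DESeq2, a choice made after the data were seen, it was 7 without Abeta42_3451, 9 without Abeta42_3457 and 4 without both, and with edgeR it was 0 without both. For 3D6 it was 0 under every alternative run, leaving out each heart included. The log2 fold change of *Ucp1* was 3.90 with limma-voom against 9.13, and ranged from 6.83 (without Abeta42_3457) to 9.63 when each heart was left out. The fold changes of *Cfd* spanned -0.08 (without Abeta42_3457) to 1.74, and those of *Cidec* 0.22 to 2.74. With limma-voom on all hearts, the median of the 8 tested genes was 1.07 against 1.75 in edgeR, with *Plin1* at 1.46 and *Car3* at 0.39. Mean CPM by total count instead of TMM moved by less than 1 SD in all 40 gene and group pairs; Abeta42_3457 then had 300.0 CPM of *Ucp1*. The causes were not tested. No paired analysis was run, because the groups share no mouse numbers and the labels state no pairing. Counts of at most 3 limit *Lep* and *Retn* in the antibody study.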
